A study of Mus musculus with 6 samples.

Results

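The 10 Krüppel-like factor (Klf) genes Klf2, Klf3, Klf4, Klf5, Klf6, Klf7, Klf9, Klf10, Klf12 and Klf13 were taken by name from 21887 RefSeq protein-coding genes of the mouse. Klf6 and Klf7 were set against the other 8. The data come from TrkC neurons of the dorsal root ganglion, the lineage of the proprioceptors, which sense muscle stretch. Ganglia were dissected from Runx3-BAC-GFP-CB6 transgenic mice at embryonic stage E11.5, so all groups carry the transgene, and sorted cells are those in which the Runx3 bacterial artificial chromosome drives GFP. The 6 samples are 2 ATAC-seq samples (open chromatin), 2 H3K27ac ChIP-seq samples (acetylation of lysine 27 of histone H3, a mark of active promoters and enhancers) and 2 samples of input DNA. How many embryos entered a sample is not given in the sources used here. The values are 1 consensus list of peaks per assay, with 43739 ATAC and 19928 H3K27ac peaks, giving positions but no height. Depth is therefore unknown, the replicates cannot be compared, and every comparison below is a description without a test.

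Klf proteins bind GC-rich and CACCC sequences through an array of zinc fingers at their C-terminal end. Members differ in the rest of the protein and act as activators or repressors. In the nervous system of mice and rats, Klf6 and Klf7 are known to favour axon growth, and Klf4 and Klf9 to hold it back. Klf7 is also known from the development of mouse sensory neurons.

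A locus is the annotated gene with its flanks up to the neighbouring protein-coding genes, at most 100 kb on each side. A peak is at an end if it lies within 1 kb of either annotated end, and otherwise inside the gene or in a flank. An ATAC peak counts as acetylated if it shares at least 1 bp with an H3K27ac peak. Positions are on mm10 (GRCm38), counted from 1. The promoter windows of RefSeq (GRCm38.p6) hold 250 bases before and 50 after a transcript start; 8 members matched, without Klf5 and Klf10. The windows of Klf6 and Klf7 are shown as the pair in question, that of Klf3 for its many GC boxes and that of Klf12 because it held no peak. They lie at chr13:5861239-5861538 (plus strand), chr1:64121340-64121639 (minus), chr5:64803271-64803570 (plus) and chr14:100149747-100150046 (minus), in the order of the lines, and each reads 5′ to 3′ on the strand of the gene. Capitals mark GGGCGG (GC box) and CACCC on either strand; the marks can overlap or touch.
Klf6: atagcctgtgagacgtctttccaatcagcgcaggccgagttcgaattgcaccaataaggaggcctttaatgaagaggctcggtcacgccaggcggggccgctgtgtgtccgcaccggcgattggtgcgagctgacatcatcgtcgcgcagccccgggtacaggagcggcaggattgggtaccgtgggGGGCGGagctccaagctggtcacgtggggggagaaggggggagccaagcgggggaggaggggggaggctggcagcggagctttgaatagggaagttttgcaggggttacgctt
Klf7: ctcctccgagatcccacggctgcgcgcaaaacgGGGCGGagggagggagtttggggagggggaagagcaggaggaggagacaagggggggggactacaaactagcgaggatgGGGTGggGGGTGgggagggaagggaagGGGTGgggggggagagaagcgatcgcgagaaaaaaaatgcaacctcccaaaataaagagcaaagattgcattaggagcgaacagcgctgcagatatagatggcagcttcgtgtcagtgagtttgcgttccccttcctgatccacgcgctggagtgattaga
Klf3: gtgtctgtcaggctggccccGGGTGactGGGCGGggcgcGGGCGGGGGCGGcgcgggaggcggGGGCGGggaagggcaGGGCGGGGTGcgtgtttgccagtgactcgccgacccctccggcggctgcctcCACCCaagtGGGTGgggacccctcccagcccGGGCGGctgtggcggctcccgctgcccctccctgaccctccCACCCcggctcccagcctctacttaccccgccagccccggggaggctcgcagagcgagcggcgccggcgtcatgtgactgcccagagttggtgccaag
Klf12: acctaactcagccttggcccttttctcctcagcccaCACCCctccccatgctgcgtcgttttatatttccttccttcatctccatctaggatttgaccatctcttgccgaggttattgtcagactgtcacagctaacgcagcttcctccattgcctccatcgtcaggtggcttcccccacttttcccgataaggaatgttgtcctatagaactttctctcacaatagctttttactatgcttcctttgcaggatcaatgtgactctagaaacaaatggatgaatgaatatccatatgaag

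An ATAC peak covered all 300 bases of 6 of these 8 windows, the first 73 bases of the Klf7 window and none of the Klf12 window. Thus the GC box of Klf7 at bases 34 to 39 lay in the ATAC peak, and its 3 CACCC matches, from base 113 on, did not. H3K27ac covered all 300 bases at Klf3, Klf4, Klf6, Klf7, Klf9 and Klf13, 96 bases at Klf2 and none at Klf12. A GC box was found in the windows of Klf6, Klf7, Klf2, Klf3, Klf4 and Klf13 (6 of 8). It was found in 69.6% of the 13311 RefSeq windows that overlap an ATAC peak and in 35.7% of all 32851 windows. The CACCC letters were found in 6 of 8, against 64.5% of open and 57.5% of all windows. The member shares thus lay near those of open windows. Klf3 had 6 GC boxes and 5 CACCC matches, Klf6 had 1 GC box and no CACCC match, and Klf9 had no GC box and 1 CACCC match. The longer form GGGCGTGG occurred only at Klf13 among the 8 (10.7% of open windows), and GGGTGTGG, which contains a CACCC match, only at Klf12 (3.64%). CCAAT occurred 4 times at Klf6, 3 times at Klf9 and 2 times at Klf13, and TATAAA once, at Klf12. A match describes letters and not a bound site.

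All 10 Klf genes carried both marks at an annotated end. Among all protein-coding genes, 60.4% had an ATAC peak there, 49.3% an H3K27ac peak and 47.8% both. The 10 were chosen with earlier results of these data known, and of the 7 Klf genes not chosen, 2 had both marks. At 9 members an ATAC peak at the end itself overlapped H3K27ac, against 46.5% of all genes. The exception was Klf5, a factor of proliferating epithelium and smooth muscle. Its ATAC peak of 318 bp and its H3K27ac peak of 262 bp lay 305 bp apart. Klf3 shares its end with the predicted gene Gm38457, whose own end lies within 1 kb of the same peaks.

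At the gene end, Klf6 and Klf7 had the widest H3K27ac peaks of the 10. Klf7 had a peak of 7830 bp (chr1:64115288-64123117), a width reached by 0.427% of the 10782 genes acetylated at an end. Klf6 had a peak of 4015 bp (chr13:5860398-5864412), a width reached by 2.45%. The other 8 ran, from wide to narrow, over 3289 bp at Klf13, 2782 bp at Klf10, 2727 bp at Klf12, 1920 bp at Klf3, 1465 bp at Klf4, 854 bp at Klf9, 714 bp at Klf2 and 262 bp at Klf5. Both values of the pair thus lay above the range of the other 8, whose median was 1692 bp; the median over all acetylated genes was 1317 bp. Width is the authors' peak extent, not a height.

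ATAC widths at the ends did not set the pair apart. They were 542 bp at Klf6 and 847 bp at Klf7, within the range of the other 8 (318 bp at Klf5 to 966 bp at Klf9, median 663 bp). The median of all genes open at an end was 431 bp. Klf9, a thyroid hormone and glucocorticoid responsive repressor, combined the widest ATAC peak of the 10 with a narrow H3K27ac peak of 854 bp, which 75.5% of acetylated genes matched or exceeded. The ATAC width of Klf6 was matched or exceeded by 30.4% of open genes.

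**Figure D1:**
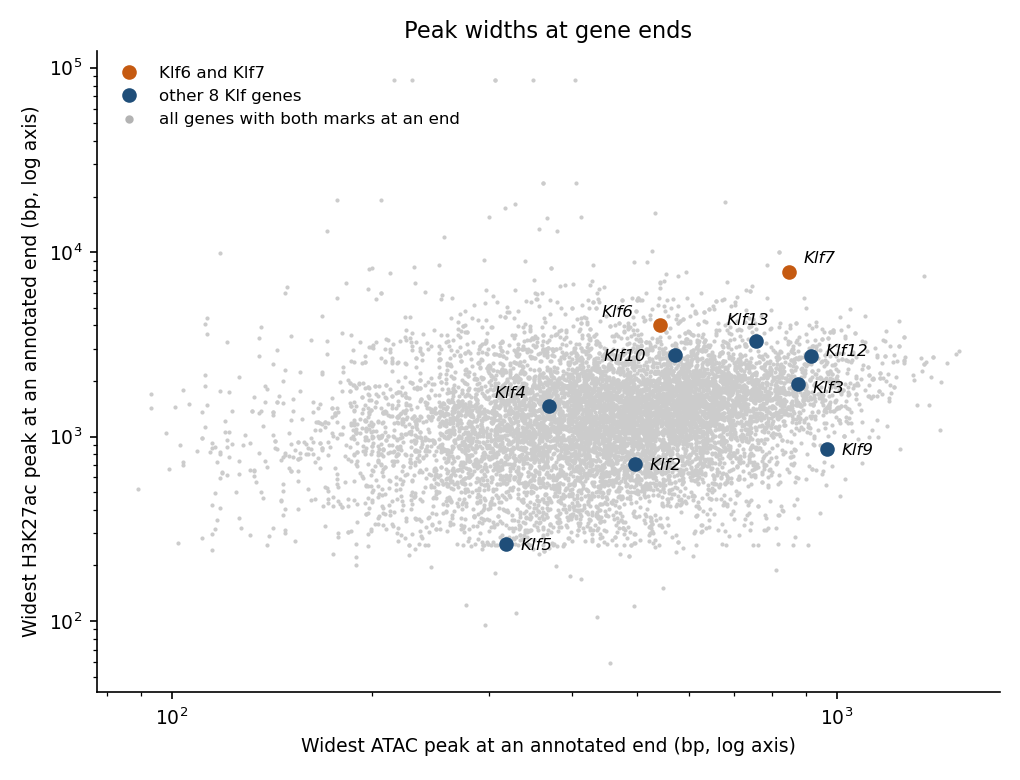
Widest H3K27ac peak against widest ATAC peak within 1 kb of an annotated end, both in bp on log axes; grey points are all genes with both marks, orange points Klf6 and Klf7, blue points the other 8. Klf7 (7830 bp) and Klf6 (4015 bp) lie above the other 8 on the H3K27ac axis, and between Klf5 (318 bp) and Klf9 (966 bp) on the ATAC axis.

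Within 100 kb, Klf6 and Klf7 differed in their peaks away from the end. Klf7 held 8 ATAC peaks and 14 H3K27ac peaks in a locus of 293 kb. Klf6 held 2 ATAC peaks and 1 H3K27ac peak in 209 kb. Of all loci, 37 (0.169%) had at least as many H3K27ac peaks as Klf7, and 64.0% at least as many as Klf6. Per 100 kb of locus, Klf7 had 4.78 H3K27ac peaks, reached by 16.5% of all loci, and Klf6 had 0.479, reached by 60.2%. With the wider 50% of each peak list, Klf7 had 8 H3K27ac peaks and Klf6 1, against 0 to 3 at the other 8. With flanks in full to the neighbouring genes, Klf7 had 24 and Klf6 10, against 1 to 6, so the count of Klf6 depends on the limit of 100 kb. The full Klf6 locus measured 1940 kb, and 2 of its 10 peaks lay at ends of the neighbouring genes. Per 100 kb of the full locus, Klf6 had 0.516 H3K27ac peaks, within the 0.159 to 2.46 of the other 8, and Klf7 had 3.14. Within 100 kb, the other 8 had 1 to 5 H3K27ac peaks (median 2) and 1 to 11 ATAC peaks (median 5.5). The medians over all loci were 1 H3K27ac and 2 ATAC peaks. The 10 Klf loci were longer, with a median of 189700 bp against 67420 bp over all loci. Per 100 kb, their medians were 2.75 ATAC and 1.17 H3K27ac peaks, against 2.85 and 0.992 over all loci. Values for the pair as a unit, 15 H3K27ac and 10 ATAC peaks against 19 and 44 in the other 8, therefore come mostly from Klf7.

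**Figure D2:**
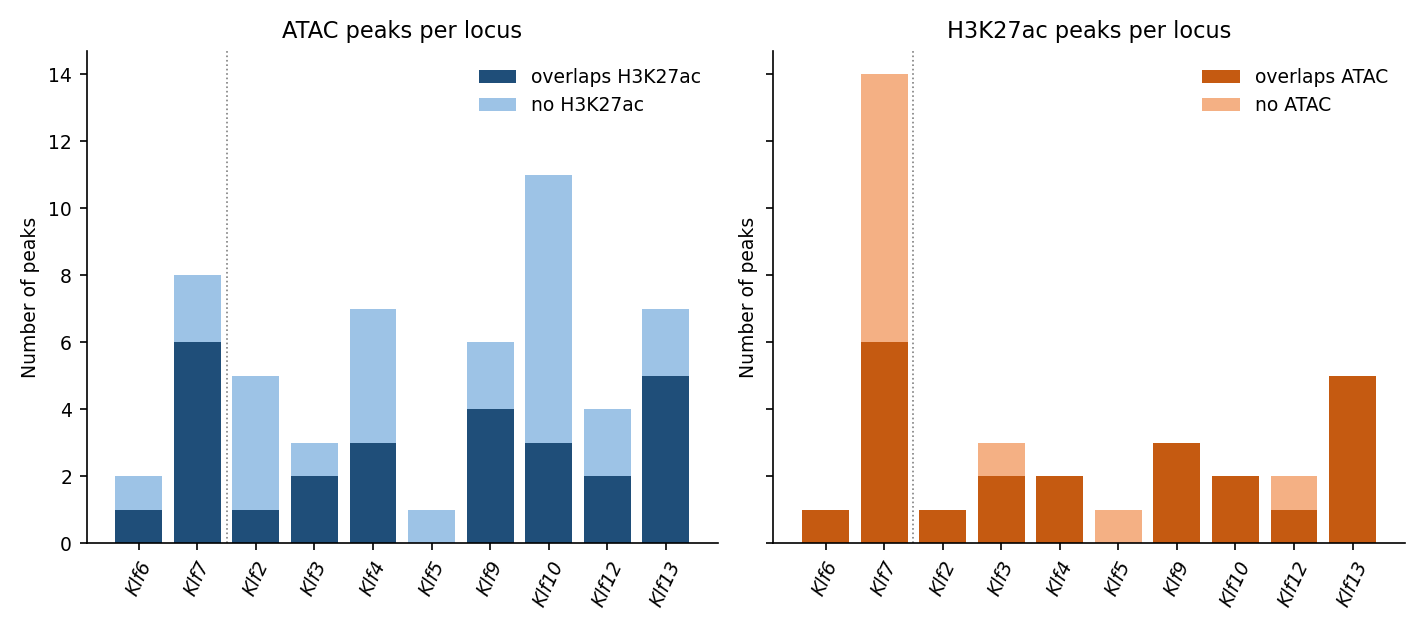
Number of ATAC peaks (left) and H3K27ac peaks (right) in the locus of each Klf gene, with Klf6 and Klf7 left of the dotted line; dark parts overlap a peak of the other assay and light parts do not. Klf7 has 14 H3K27ac peaks, 8 of them without ATAC, whereas Klf6 has 1, and Klf10 has the most ATAC peaks, 11.

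In Klf7, H3K27ac peaks were spread along the gene. The gene spans chr1:64029448-64122345 (92.9 kb), and H3K27ac covered 22677 bp of it (24.4%). The covered share of the gene was 32.8% at Klf6, 25.8% at Klf2 and 21.7% at Klf10, and 0.826% to 8.11% at the rest. Besides the peak at the end, 8 H3K27ac peaks of 896 to 3719 bp lay inside the gene. An H3K27ac peak away from the ends was present in 4 of the 10 genes (Klf7, Klf3, Klf12 and Klf13, 1 peak in each of the last 3), against 15.4% of all genes. These 4 were the longest of the 10, with spans of 29.4 to 420 kb, against 2.59 to 26.9 kb for the others. The share of all genes is not adjusted for gene length. Over its whole locus Klf7 had 28078 bp of H3K27ac, an amount reached by 20 of 21887 loci (0.0914%). Klf6 had 4015 bp (reached by 6.98%), and the other 8 had 262 bp at Klf5 to 7993 bp at Klf13, with a median of 2748 bp. Loci differ in length, and H3K27ac made up 9.59% of the Klf7 locus, a share reached by 8.06% of all loci, so the rank of Klf7 was less extreme per length. That share was 1.92% at Klf6 and 0.165% to 3.35% at the other 8.

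**Figure D3:**
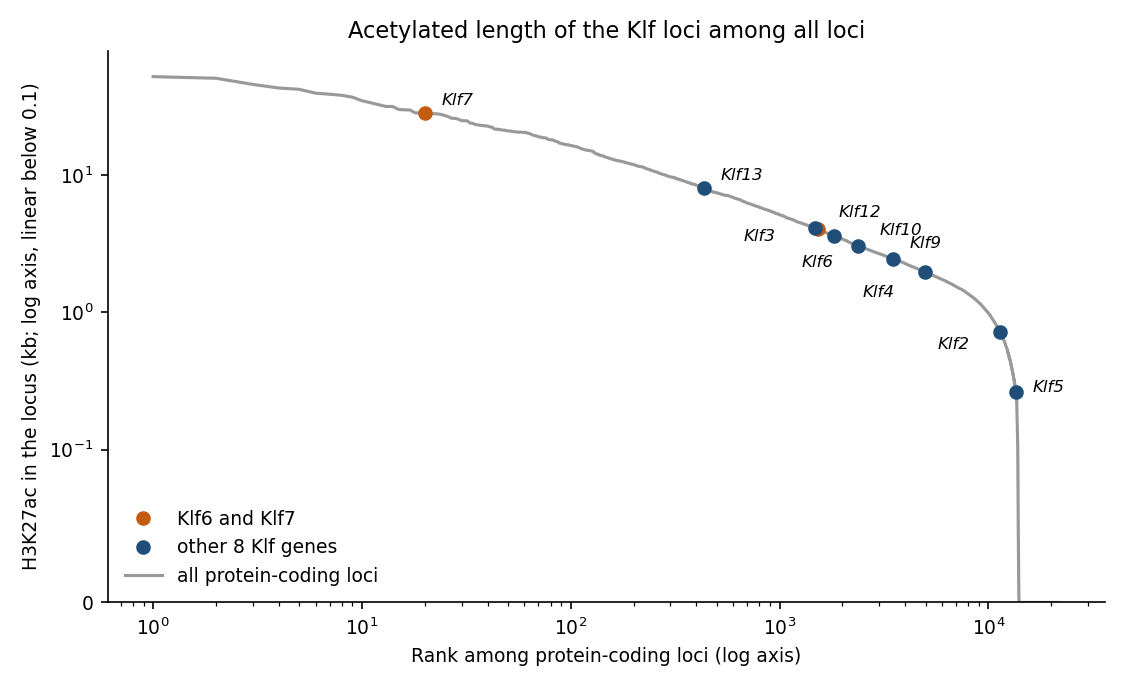
H3K27ac length in the locus, in kb, against the rank of the locus among 21887 protein-coding loci, both on log axes (the vertical axis is linear below 0.1 kb); the grey line is all loci, orange points Klf6 and Klf7, blue points the other 8. Klf7 is at rank 20 with 28.1 kb, Klf13 at rank 436 with 7.99 kb and Klf6 at rank 1528 with 4.01 kb.

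Inside Klf7, 3 ATAC peaks of 240, 261 and 398 bp lay within acetylated stretches of 2605, 3719 and 2866 bp. These are chr1:64061119-64061358, chr1:64066920-64067180 and chr1:64078834-64079231, 60.0, 54.2 and 42.2 kb downstream of the RefSeq start. The other 5 H3K27ac peaks inside the gene, 896 to 2033 bp wide, held no ATAC peak. In the flanks, an open region of 280 bp at chr1:64191590-64191869, 70.2 kb upstream of the RefSeq start, lay within an H3K27ac peak of 1922 bp. A further ATAC peak of 127 bp, 127 kb downstream of the start, met an H3K27ac peak by 1 bp only. It counts among the 6 acetylated ATAC peaks of Klf7, which are 5 if the mark must cover 50% of the ATAC peak. The 2 unacetylated ATAC peaks, of 110 and 103 bp, were narrow, and both lay in the flank.

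The whole Klf7 locus had more H3K27ac peaks without ATAC (8) than with it (6). Away from the ends, 5 of 13 H3K27ac peaks of Klf6 and Klf7 (all Klf7) overlapped an ATAC peak (38.5%), against 9 of 11 (81.8%) in the other 8 and 44.8% of the 10401 H3K27ac peaks lying over 1 kb from every gene end. Klf7 was thus near the share of all such peaks and the other 8 above it. The 2 exceptions among the other 8 were a peak of 1060 bp in Klf3 and one of 869 bp in Klf12.

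Klf6 had few peaks within 100 kb. The gene spans 8.90 kb (chr13:5861489-5870393), and its nearest protein-coding neighbours, Akr1e1 and Pitrm1, lie 1250 and 678 kb away. The ATAC peak at its start (chr13:5861090-5861631) lay within the single H3K27ac peak, which covered 32.8% of the gene, the highest share of the 10. The only other peak within 100 kb was an unacetylated ATAC peak of 112 bp, 58.4 kb upstream.

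**Figure D4:**
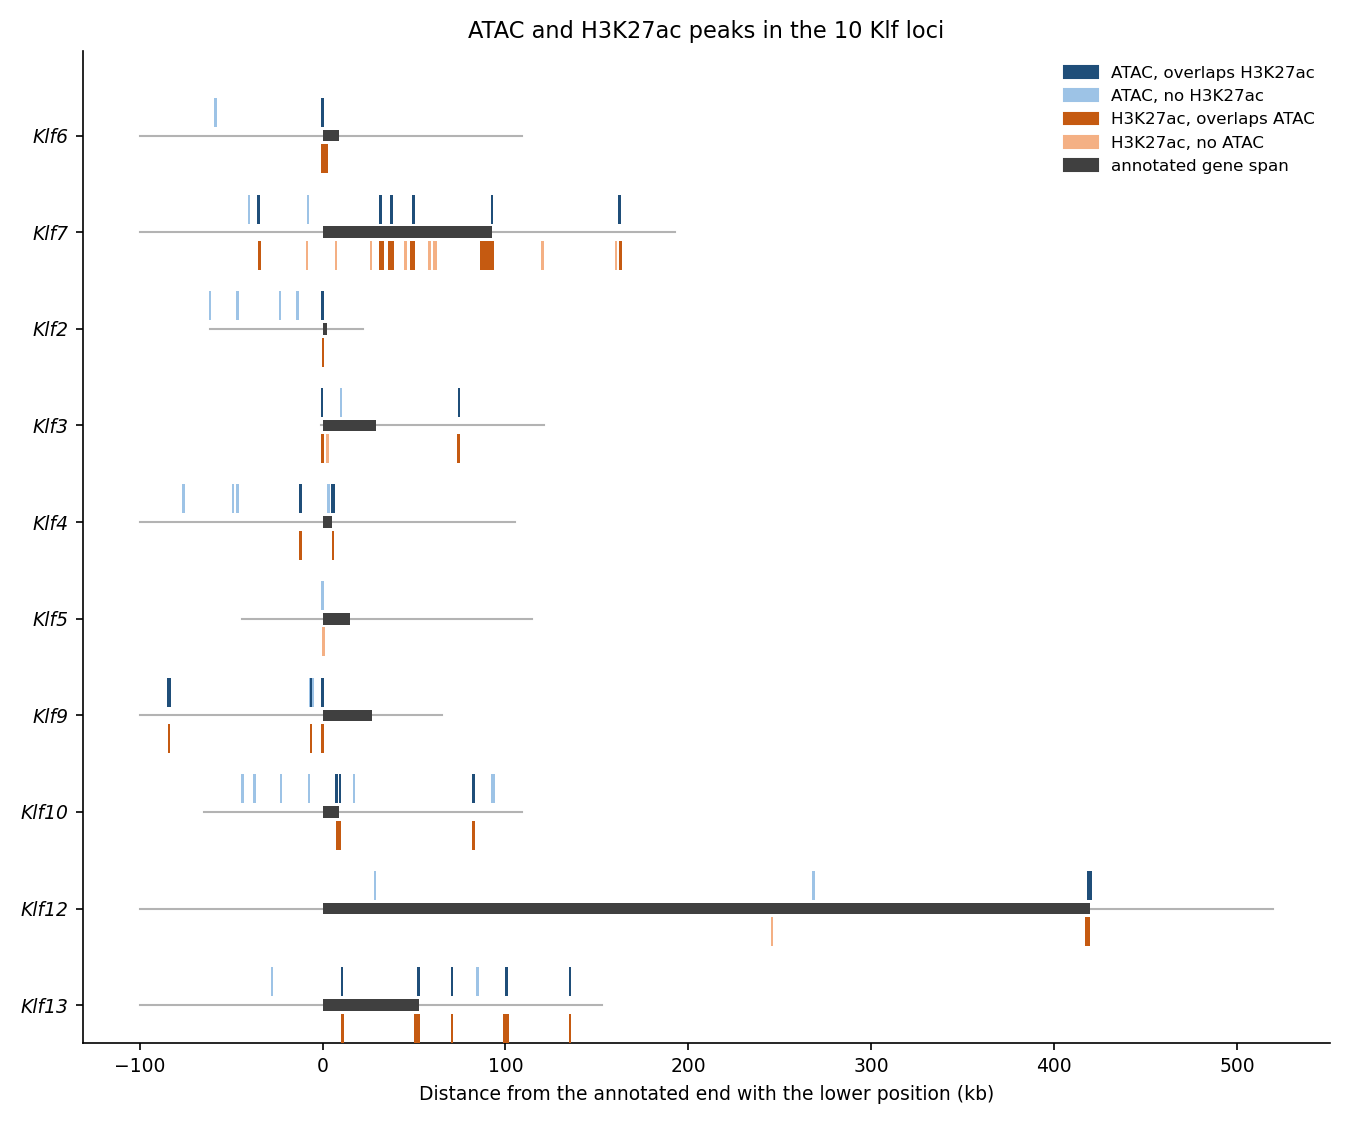
Peaks in the 10 Klf loci, each a row with distance in kb from the annotated end with the lower position; dark bars are the annotated spans, ticks above the line ATAC peaks and ticks below it H3K27ac peaks, in dark colours where the other assay overlaps. Narrow peaks are widened to be visible and can merge. Klf7 shows 14 H3K27ac ticks along the gene and its flanks, and Klf6 shows 1.

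Distal acetylated open regions, ATAC peaks away from the gene's own ends that overlap H3K27ac, were found at 6 of 10 Klf loci, against 35.0% of all loci. Klf7 had 5 of them, Klf13 4, Klf9 3, Klf10 2, and Klf3 and Klf4 1 each. Klf6, Klf2, Klf5 and Klf12 had none. At least 5 were present in 1.11% of all loci, at least 4 in 2.12% and at least 3 in 4.98%. These shares, and the 35.0%, are not adjusted for locus length. The median length was 189700 bp for the 10 Klf loci and 67420 bp for all loci. Of the distal ATAC peaks, 5 of 8 (62.5%) at Klf6 and Klf7 and 11 of 34 (32.4%) at the other 8 were acetylated. The 5 were all at Klf7 and include the overlap of 1 bp. The share was 22.0% of the 28540 ATAC peaks over 1 kb from every gene end. Over all 10 loci and all places, 27 ATAC peaks of 54 (50%) were acetylated, with a median width of 369 bp, and 27 were not, with a median of 159 bp. Of all ATAC peaks of the series, 39.6% were acetylated. The corresponding medians over all peaks were 365 and 165 bp.

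Klf13, known from T cells and the developing heart, was next after Klf7 among the 10 in H3K27ac length. It had 7 ATAC and 5 H3K27ac peaks in 253 kb, and each of its H3K27ac peaks overlapped an ATAC peak. In the gene, an ATAC peak of 292 bp at chr7:63896879-63897170 overlapped H3K27ac 41.7 kb downstream of the start. Upstream of it, acetylated ATAC peaks of 480, 686 and 284 bp lay at 18.1, 47.5 and 82.6 kb, the middle one (chr7:63986431-63987116) in an H3K27ac peak of 3124 bp. That peak was nearly as wide as the 3289 bp at the Klf13 end.

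Klf9 had its distal peaks upstream only. A pair of ATAC peaks of 230 and 166 bp, about 84 kb upstream, shared 1 H3K27ac peak of 631 bp (chr19:23057004-23057634). A group of 3 ATAC peaks of 226, 210 and 293 bp lay 6.81, 6.15 and 5.03 kb upstream. The middle one overlapped an H3K27ac peak of 966 bp (chr19:23134503-23135468), and the outer ones lay 84 and 435 bp outside that peak. No peak of either assay lay inside Klf9 beyond its start.

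Klf4 and Klf10 had 7 and 11 ATAC peaks, of which 42.9% and 27.3% were acetylated, against 39.6% of all ATAC peaks. Klf4, a reprogramming factor that also restrains axon growth, had 3 acetylated ATAC peaks: a pair at its start under 1 H3K27ac peak of 1465 bp, and one of 423 bp at chr4:55514772-55515194, 17.3 kb downstream of the RefSeq start and outside the gene. Klf10, an early response gene to TGF-beta, had a number of ATAC peaks reached by 1.91% of all loci, and per length by 25.0%. Its 3 acetylated peaks were one of 570 bp at the end and one of 535 bp in the gene, both under 1 H3K27ac peak of 2782 bp (chr15:38298706-38301487), and one of 331 bp in a flank, 73.2 kb from the gene. The other 8, all in the flanks, had no H3K27ac. Klf10 also had the highest ATAC density of the 10, 6.32 peaks per 100 kb, against 0.957 at Klf6, 2.73 at Klf7 and a median of 2.85 over all loci.

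Klf2 was acetylated at its start only. It is known for blood flow responses of endothelium and for T cell quiescence. Its ATAC peak of 497 bp shared 177 bp with an H3K27ac peak of 714 bp, so that less than 50% of the ATAC peak was covered. Its 4 flank ATAC peaks of 100 to 310 bp were all unacetylated, and the farthest lay within 1 kb of an end of the neighbour Ap1m1. Klf3, a repressor that recruits Ctbp proteins, had an acetylated ATAC peak of 368 bp at chr5:64878038-64878405, 74.5 kb downstream of its start.

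Klf12, a repressor of the AP-2 alpha gene, was marked at a start that its RefSeq promoter window did not hold. The gene spans 420 kb (chr14:99866181-100285891), and its RefSeq start lies 136 kb inside the upper annotated end. The nearest ATAC peak to that RefSeq start, of 111 bp, lay 15.3 kb away, and the nearest H3K27ac peak 37.4 kb away. At the upper annotated end, 2 ATAC peaks of 913 and 183 bp overlapped 1 H3K27ac peak of 2727 bp (chr14:100283293-100286019). Only 2 further ATAC peaks and 1 H3K27ac peak lay in the gene, none in its flanks, and none of these overlapped. Klf5, the next coding gene, lies 553 kb away and had no peak beyond the 2 at its end.

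Other genes of the family and its pathway differed among themselves. Of the 7 other Klf genes, 3 were open at an end (Klf11, Klf14 and Klf16), 3 acetylated (Klf1, Klf11 and Klf16) and 2 both. Klf1, the erythroid factor, had an H3K27ac peak of 622 bp there and no ATAC peak. Of the 9 related Sp genes, 8 were open (all but Sp6) and 4 acetylated (Sp1, Sp3, Sp4 and Sp7). Among 12 genes of Klf partners, such as the corepressors Ctbp1, Ctbp2 and Sin3a and the acetyltransferase Ep300, all had both marks. The shares of all genes, given above, were 60.4% open, 49.3% acetylated and 47.8% both.

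Of 8 genes described as Klf targets in neurons, 7 had both marks at an end, against 47.8% of all genes. The exception was Cdkn1a, a cell cycle inhibitor. Ntrk2, which encodes the BDNF receptor TrkB, had 3 H3K27ac and 12 ATAC peaks, and 1721 bp of H3K27ac at its end. Ntrk3, which encodes TrkC, had neither mark at an annotated end, but 8 H3K27ac and 12 ATAC peaks in its locus, 4 and 7 of them inside the gene. No acetylated distal ATAC peak was found at Ntrk2, and 3 were found at Ntrk3.

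Markers of other cell types were examined because several Klf genes are also known from them. Of 10 sensory neuron markers, 8 were open and 7 acetylated at an end. Ntrk3 and Prph had neither mark there, and Runx3 was open there without H3K27ac. The Runx3 locus held 36 ATAC and 8 H3K27ac peaks, with 12 acetylated distal ATAC peaks. All samples carry the Runx3 bacterial artificial chromosome by which the cells were sorted, and its part in these peaks was not tested. Of 8 endothelial and mural markers, 2 were open (Kdr and Sox17) and none acetylated, and Cdh5, Pecam1, Tek and Tie1 had neither mark. Of 8 blood markers, 1 was open (Spi1) and 1 acetylated (Cd68). Of 8 glial and neural crest markers, 6 were open and 7 acetylated, and of 8 mesenchyme and muscle markers, 6 were open and 2 acetylated (Pax3 and Twist1). All 10 immediate early and dissociation response genes had both marks, against 47.8% of all genes. An acetylated distal ATAC peak was present at 9 of them, all but Dusp1, against 35.0% of all loci. The 10 loci had medians of 8 ATAC peaks, 3.5 H3K27ac peaks and 3.5 acetylated distal ATAC peaks. The 10 Klf genes had medians of 5.5, 2 and 1. Klf2, Klf4, Klf6 and Klf10 are themselves known to respond to stimulation, and the part that tissue handling or glial and neural crest cells had in the peaks at Klf genes was not tested. Lists pooled over sorted cells cannot tell a mark in all cells from a mark in some.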

How the data were processed

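Sorted TrkC neurons, 50000 per preparation, gave 2 ATAC, 2 H3K27ac and 2 input samples; libraries had at most 15 PCR cycles and fragments up to about 600 bp, per the labels' protocols. The authors deposited 1 consensus list of peak start and end positions in bp per assay. Per the submitters' processing notes, cutadapt 1.18, Bowtie2 2.3.5.1, MACS2 and bedtools were used on mm10; thresholds and the way the consensus was formed are not given in the sources used here. A stricter or looser consensus would change every count. Input DNA enters no comparison.

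The 43652 ATAC and 19924 H3K27ac peaks of the numbered chromosomes, X and Y were intersected in Python 3.11.15 with RefSeq spans of GRCm38.p6, whose annotated ends include predicted transcripts. The functions were checked on simulated peaks. Counts are exact for the lists, and their precision is unknown without depth. Ranks count loci with a value at least as high. The members, gene lists and motifs were chosen with earlier results of these data known. All members are named; of other lists, genes with or without a mark are named where 5 or fewer, apart from partners named as examples. Some genes of these lists are not reported here by name. Alternatives were windows of 0.5 and 2.5 kb, flanks of 50 kb, the wider 50% of each list and cover of 50%; flanks in full were added after seeing the data.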

Additional observations from a re-analysis of the deposited data

How the results depend on the processing

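No paired analysis was possible because each list pools both replicates of its assay. With windows of 0.5 and 2.5 kb all 10 members kept both marks at an end. With the wider 50% of each list all 10 had an ATAC peak at an end, but 7 had H3K27ac there and 7 had both marks, without Klf2, Klf5 and Klf9; the shares of all genes were then 54.3%, 32.5% and 30.4%. That setting left 6 ATAC peaks at Klf6 and Klf7, 27 at the other 8 and 33 in all, and 9, 8 and 17 H3K27ac peaks. Acetylated ATAC peaks then numbered 8 at the other 8 and 14 in all. With flanks in full to the neighbouring genes, Klf6 and Klf7 had 21 ATAC, 34 H3K27ac and 12 acetylated ATAC peaks, and all 10 had 82 ATAC and 60 H3K27ac peaks; Klf6 alone then had 10 H3K27ac peaks in place of 1. These counts include peaks at ends of the neighbouring genes. Flanks of 50 kb and cover of 50% moved no group count by over 1.5 times. Neither depth nor replicate agreement can be judged from the lists, so a missing peak is not a missing mark.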

Other observations

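Peaks continued beyond 100 kb at 6 of the 10 Klf loci. In full, to the neighbouring genes on both sides, the Klf6 locus measured 1940 kb and held 7 ATAC and 10 H3K27ac peaks, 5 and 9 more than within 100 kb. Of the added peaks, 2 ATAC and 2 H3K27ac peaks lay within 1 kb of an end of Akr1e1 or Pitrm1, the neighbouring genes. The nearest added peaks lay above Klf6 at 108 and 130 kb, H3K27ac peaks of 296 and 1798 bp without ATAC. The full Klf7 locus measured 764 kb and held 14 ATAC and 24 H3K27ac peaks, 6 and 10 more, of which 1 ATAC and 1 H3K27ac peak lay at an end of the neighbour Creb1. Without such peaks, H3K27ac peaks numbered 8 at Klf6 and 23 at Klf7, against 1 to 6 at the other 8. The widest added peak, 5811 bp of H3K27ac at chr1:64223705-64229515 with 1 ATAC peak in it, began 101 kb upstream of the upper annotated end of Klf7, just past the limit. Of the other 8, Klf4, Klf10, Klf12 and Klf13 also gained peaks: 5, 3, 3 and 6 ATAC peaks and 2, 3, 1 and 1 H3K27ac peaks. The full loci of Klf12 and Klf4, 1880 and 1350 kb, were wider than that of Klf7. Per 100 kb of the full locus, H3K27ac peaks numbered 0.516 at Klf6 and 3.14 at Klf7, against 0.159 at Klf12 to 2.46 at Klf3. Which gene such peaks belong to was not tested.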
